A study of Homo sapiens with 16 samples.

Results

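The response of the human T-cell acute lymphoblastic leukaemia line CUTL1 to PD-0332991 was measured by comparing 2 arrays of treated cells with 2 arrays of DMSO-treated cells, 4 of the 16 arrays of the series. The other 12 arrays held CEM, DND41 and Jurkat, also T-cell leukaemia lines, with 2 DMSO and 2 PD-0332991 arrays each. PD-0332991, also called palbociclib, was given at 1 uM for 15 h, and the control was DMSO, its solvent, for the same 15 h. The labels name no introduced allele and no further agent in any group. Expression was read on Affymetrix Human Genome U133 Plus 2.0 arrays, which measure transcripts with sets of short probes. The labels do not say whether the replicate arrays came from separate cultures, so every p-value below reflects the spread of the arrays alone, and that spread may be only technical.

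PD-0332991 inhibits CDK4 and CDK6, the kinases that cyclin D partners activate in early G1. They phosphorylate RB1 and its relatives RBL1 and RBL2, which otherwise hold E2F transcription factors inactive at genes of DNA replication. Developing T cells rely mainly on cyclin D3 and CDK6. The MYC protein drives genes of ribosome assembly, and the BCL2 family sets the threshold for mitochondrial cell death.

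Values are log2 intensities of 1 probe set per gene, and a difference is PD-0332991 minus DMSO on that scale. A gene was called when the Benjamini-Hochberg adjusted p of limma's moderated test, over 13483 genes, was under 0.05. A gene below 4.88 on the log2 scale, the median of all deposited values, is written here as dim. All 12 T cell markers lay above that level on the 4 CUTL1 arrays, with summed intensities of 41670 and 42000 with DMSO and 48730 and 48240 with PD-0332991. Of the 6 B cell markers measured, CD79A, CD79B and CR2 were above it on all 4 arrays. PAX5 was above it on 2 arrays, and MS4A1 and BLNK were below it on all 4. Of the 6 myeloid markers, 5 were below it on all 4 arrays. Above it on all 4 were 3 of 4 erythroid and megakaryocyte markers and 3 of 7 NK and cytotoxic markers. So were 2 of 5 fibroblast and endothelial markers and 1 of 4 epithelial markers. Lying above this level was therefore not particular to T cell markers. The replicate arrays correlated at 0.9954 with DMSO and 0.9975 with PD-0332991. The 18S ribosomal RNA probes read 13.28 and 13.17 with DMSO and 12.80 and 12.67 with PD-0332991. The 5 prime minus 3 prime value of ACTB, a measure of RNA quality, was -1.23 and -1.38 with DMSO and -1.13 and -1.74 with PD-0332991. On the arrays of the other lines it was -0.51 to -1.01. The same measure of GAPDH, -0.101 to -0.162, lay within the range of the other lines. Whether the 18S shift or the ACTB values had a part in any result below was not tested.

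In CUTL1, 3673 genes were called, or 27.2% of those tested. Of these, 1966 were higher (14.6%) and 1707 were lower (12.7%), against a median difference of 0.0497 over all genes tested. The falls were the larger changes. At least 2-fold falls numbered 428 and at least 2-fold rises numbered 45, and at least 4-fold falls numbered 88 and rises 1. The median size was 0.404 among the genes called higher and -0.617 among those called lower. Without the first PD-0332991 array of CUTL1 the count of called genes was 2447. The genes called higher numbered 1179 without the first DMSO array of CUTL1, 1170 without its first PD-0332991 array and 1135 without its second.

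Genes of the G1 to S transition and of DNA replication made up the largest falls. CCNE2, cyclin E2, which activates CDK2 at the start of S phase, read 11.21 and 11.24 with DMSO and 5.16 and 5.37 with PD-0332991. The fall of 62.2-fold was -5.96 ± 0.20 (SE) on the log2 scale, with n = 2 arrays per group and an adjusted p of 2.32e-09 by limma. E2F7, an E2F family repressor, read 9.52 and 9.52 with DMSO and 5.38 and 5.01 with PD-0332991, a difference of -4.33 ± 0.18 (SE). The treated arrays lay far below the DMSO arrays for both genes, and remained above the dim level. GINS2, a subunit of the replicative helicase, read 10.78 and 10.68 with DMSO and 6.57 and 6.53 with PD-0332991. CDC6, a loader of the MCM helicase onto origins, read 9.34 and 9.57 with DMSO and 5.43 and 5.61 with PD-0332991. These falls were 18.2-fold and 15.3-fold. When a gene's probe sets were averaged, E2F7 changed by -2.21 and GINS2 by -2.08. Without probe sets that may cross-hybridise, GINS2 was read by another probe set and was not called (-0.18). In bulk RNA, fewer cells in a cycle phase and less RNA per cell cannot be told apart.

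The other genes among the 12 largest falls were ZNF367 (-3.92), DTL (-3.87), EXO1 (-3.65), E2F8 (-3.54), CDT1 (-3.53), MCM10 (-3.46), ORC1 (-3.20) and CDC45 (-3.18). DTL is the substrate receptor of a ubiquitin ligase that destroys CDT1 in S phase, EXO1 is an exonuclease of mismatch repair, and CDT1, MCM10, ORC1 and CDC45 act at origins. For every one of these 12 genes, both treated arrays lay below both DMSO arrays. The groups did not overlap in any of the 3673 called genes, against 62.8% of all genes tested.

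**Figure D1:**
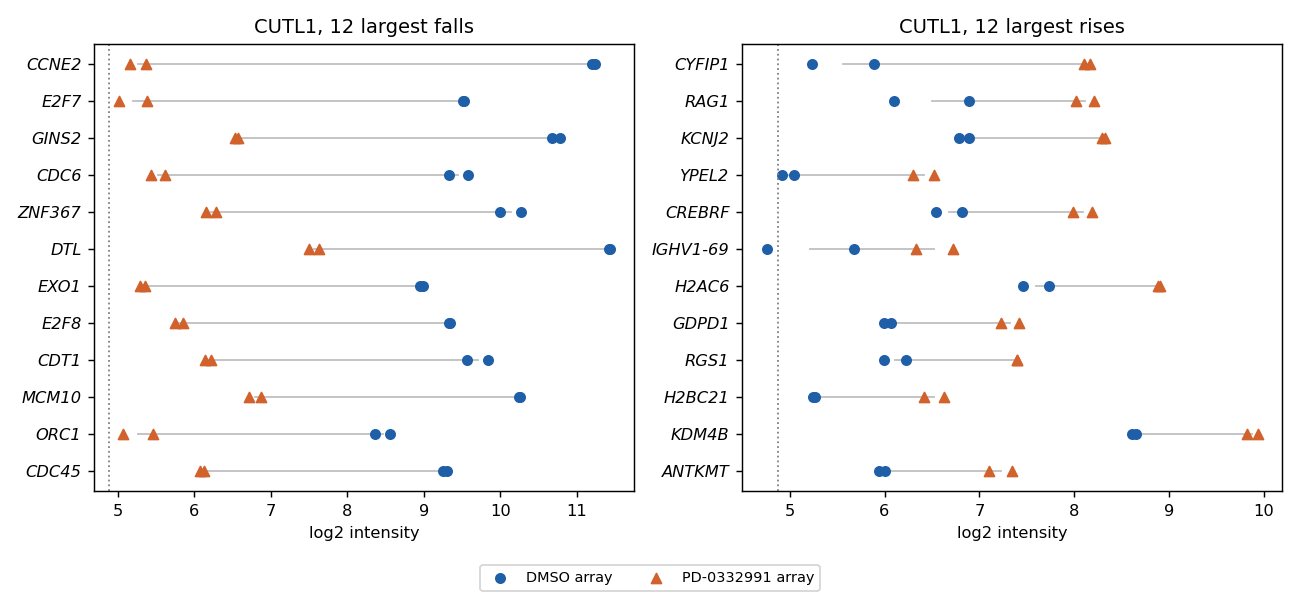
The log2 intensity on each of the 4 CUTL1 arrays for the 12 largest falls (left) and the 12 largest rises (right), with circles for DMSO, triangles for PD-0332991, a grey line between the group means and a dotted line at the dim level of 4.88. The falls span -3.18 to -5.96, while all rises but that of CYFIP1 (2.57) lie between 1.25 and 1.62.

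Promoter sequences of the largest falls are shown because 8 of the 10 that were in the table held an E2F word. RefSeq sequences of 250 bases before to 50 bases after the start site on GRCh38.p14 were searched on both strands for the 4 E2F words TTTGGCGC, TTTCCCGC, TTTGGCGG and TTTCGCGC, which may overlap each other. Below, 60 bases upstream of the start site are printed in the direction of transcription, with words on either strand in capitals.
GINS2 (chr16:85688955-85689014, minus strand): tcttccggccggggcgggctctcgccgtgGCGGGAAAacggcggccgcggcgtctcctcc
CDC6 (chr17:40287819-40287878, plus strand): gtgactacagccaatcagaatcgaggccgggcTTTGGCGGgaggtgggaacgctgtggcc
DTL (chr1:212035688-212035747, plus strand): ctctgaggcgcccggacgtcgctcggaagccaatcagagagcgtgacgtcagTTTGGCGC
CDT1 (chr16:88803729-88803788, plus strand): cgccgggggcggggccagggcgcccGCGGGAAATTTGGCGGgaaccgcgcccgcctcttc
CDC45 (chr22:19479860-19479919, plus strand): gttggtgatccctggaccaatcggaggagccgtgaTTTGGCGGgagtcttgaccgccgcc
ZNF367 (chr9:96418371-96418430, minus strand): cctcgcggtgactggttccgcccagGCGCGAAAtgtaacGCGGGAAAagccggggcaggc
E2F7 (chr12:77065570-77065629, minus strand): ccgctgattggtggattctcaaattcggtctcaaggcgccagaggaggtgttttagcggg
CYFIP1 (chr15:22980899-22980958, minus strand): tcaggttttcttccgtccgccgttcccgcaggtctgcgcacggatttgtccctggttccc

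E2F7 and ORC1 were the 2 large falls with no such word in their windows, and CYFIP1 is shown as the largest rise. None of the 11 largest rises in the table held a word. Of 10826 tested genes with a promoter in the table, 5.35% held an E2F word, against 3.43% of all 27305 promoters. The share was 12.2% among genes called lower in CUTL1, 22.4% among at least 2-fold falls and 38.6% (27 of 70) among at least 4-fold falls. It was 3.27% among genes called higher and 4.51% among genes not called. These matches are letters in a window and say nothing of binding.

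**Figure D2:**
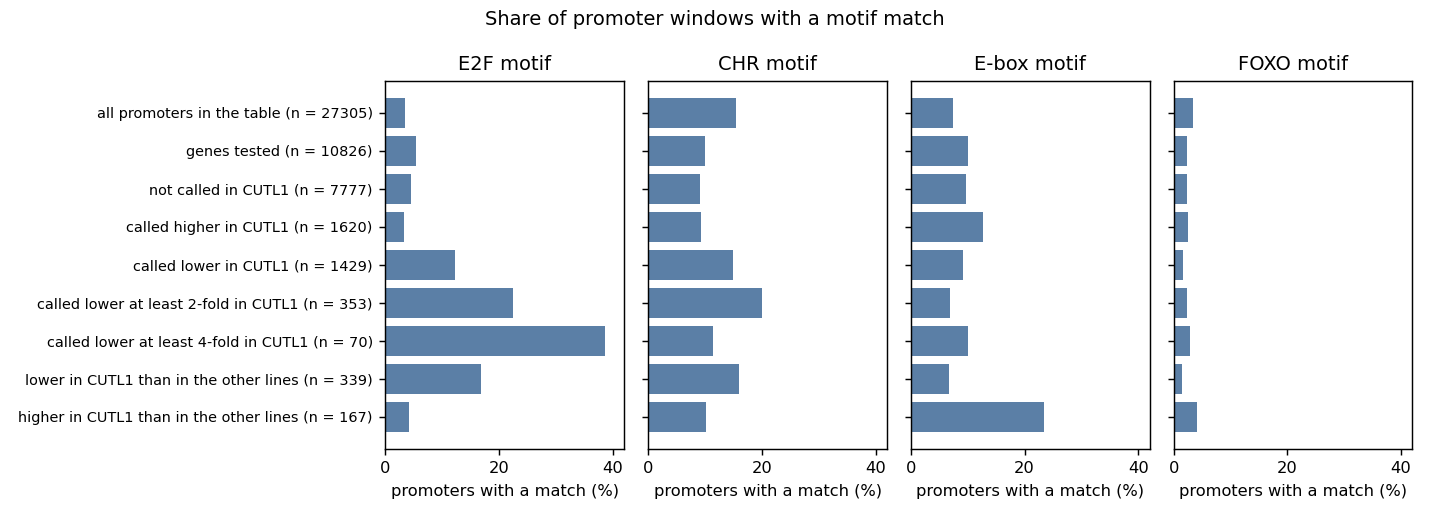
The percentage of 300-base promoter windows that hold a motif, for 9 sets of genes (rows, with the number of promoters) and 4 motifs (panels). The E2F share is 5.35% over genes tested and 38.6% over at least 4-fold falls, and the E-box share is 23.4% over genes that were higher in CUTL1 than in the other lines.

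The DNA replication list had 52 tested genes, of which 49 were called lower and 0 higher, with a median difference of -1.97. Calls took in 94.2% of the list, against 27.2% of all genes tested. The 3 members not called were ORC2 (0.13), ORC4 (0.10) and ORC5 (0.07), all subunits of the origin recognition complex. At least 4-fold falls took in 26 members. All 6 genes of the MCM2 to MCM7 helicase were called lower, by -1.79 to -3.08. MCM5 read 11.37 and 11.27 with DMSO and 8.22 and 8.26 with PD-0332991. PCNA, the sliding clamp of replication, read 13.65 and 13.54 with DMSO and 11.99 and 11.99 with PD-0332991.

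Within the network of cyclin D, CDK4/6 and RB, 18 of 33 tested genes were called lower and 1 higher, with a median of -0.354. This made 57.6% called, against 27.2% of all genes tested. CCNE1, cyclin E1, read 8.92 and 8.86 with DMSO and 6.27 and 6.02 with PD-0332991, a difference of -2.74 ± 0.13 (SE), or -1.27 with all its probe sets averaged. CDC25A, a phosphatase that activates CDKs, fell by 2.63, and RBL1, the RB relative p107, fell by 1.95 (-1.19 with probe sets averaged). E2F1 fell by 1.56. The drug's target CDK4 fell by 0.76, from 12.19 and 12.06 to 11.35 and 11.37. The gene called higher was E2F5, a repressor E2F.

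Several upstream members of this network were not called. CDK6 read 13.24 and 13.32 with DMSO and 13.52 and 13.48 with PD-0332991 (0.22, adjusted p 0.0770 by limma). CCND3, the cyclin D3 of T cells, differed by 0.20 (adjusted p 0.0702) and RB1 by -0.11 (adjusted p 0.579). CDKN1A, the inhibitor p21, read 7.04 and 7.01 with DMSO and 6.60 and 6.54 with PD-0332991 (-0.46, adjusted p 0.0575), and was called with the replicate number as a block (adjusted p 0.0183 by limma) and with the 4 CUTL1 arrays alone (0.0186). The inhibitors CDKN1B (-0.22) and CDKN2A (0.23) and the RB relative RBL2 (0.05) were not called. CCND1 (-0.20) was not called and had the other sign with probe sets averaged (0.16) and without probe sets that may cross-hybridise (0.51), and CCND2 was dim on all 4 CUTL1 arrays.

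Mitotic genes fell by less than replication genes. The share called in the mitotic list was 98.6%, against 27.2% of all genes tested. Of 71 tested genes of G2 and mitosis, 70 were called lower and 0 higher, with a median of -1.19, and BUB3 (-0.29, adjusted p 0.0862 by limma), a checkpoint protein, was not called. At least 4-fold falls took in 5 members, against 26 of the replication list. CDCA5, the cohesin regulator sororin, read 10.25 and 10.19 with DMSO and 7.68 and 7.82 with PD-0332991 (-2.47). MYBL2, a transcription factor of mitotic genes, fell by 2.28 and the kinase MELK by 2.03. CCNB1, the mitotic cyclin B1, read 11.92 and 11.83 with DMSO and 11.36 and 11.35 with PD-0332991, a fall of 0.52.

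Promoters of the mitotic list were also searched for a further word. The cell cycle homology region TTTGAA, searched on both strands, was in 68.3% (41 of 60) of the promoters of the mitotic list, against 9.93% of those of the tested genes and 15.4% of all promoters. Of the 70 promoters of at least 4-fold falls 8 held it. E2F words were in 7 of the 60 promoters of the mitotic list (11.7%). The windows of 3 motor and condensin genes are shown with that word alone in capitals. The window of KIF15 also holds the E2F word TTTGGCGC on the other strand, just before it, in lower case.
NCAPG (chr4:17810918-17810977, plus strand): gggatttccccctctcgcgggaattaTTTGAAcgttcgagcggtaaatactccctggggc
KIF11 (chr10:92593070-92593129, plus strand): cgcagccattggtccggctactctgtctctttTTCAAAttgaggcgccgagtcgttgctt
KIF15 (chr3:44761733-44761792, plus strand): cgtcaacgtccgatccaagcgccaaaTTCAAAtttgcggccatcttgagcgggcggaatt

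NCAPG, a condensin subunit, read 11.05 and 10.89 with DMSO and 8.99 and 9.04 with PD-0332991. KIF11, a spindle motor, read 11.44 and 11.37 with DMSO and 9.85 and 9.88 with PD-0332991. KIF15, a further spindle motor, fell by 1.76. In all 3 genes the treated arrays lay below the DMSO arrays.

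Calls in the nucleotide and repair lists were nearly all falls. They took in 59.3% of the nucleotide list and 86.4% of the repair list, against 27.2% of all genes tested. Of 27 tested genes of nucleotide synthesis 16 were called lower, 0 higher and 11 not called, with a median of -0.442. RRM2, the regulated subunit of ribonucleotide reductase, read 12.95 and 12.93 with DMSO and 9.96 and 9.93 with PD-0332991 (-2.99). TK1, thymidine kinase, fell by 2.59 and TYMS, thymidylate synthase, by 1.80. Of 22 tested genes of DNA repair and checkpoints 18 were called lower and 1 higher, with a median of -1.83. FANCI (-2.40) and the helicase BLM (-2.35) were among the falls, and the gene called higher was the kinase ATM (0.46).

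Chromatin genes were called in both directions. The share called in their list was 67.7%, against 27.2% of all genes tested. Among 31 tested genes of lysine demethylation and chromatin silencing 13 were called lower and 8 higher, with a median of 0.0184. The falls took in the histone chaperones ASF1B (-2.66) and CHAF1A (-2.44), the methylation reader UHRF1 (-1.78), the methyltransferase EZH2 (-1.44) and DNMT1 (-1.09), and also DNMT3B (-0.65) and the demethylase KDM2B (-0.34). The rises were DNMT3A and 7 demethylases: KDM2A, KDM4A, KDM4B, KDM4C, KDM5B, KDM6B and KDM7A. Without the first or the second PD-0332991 array of CUTL1, 5 genes were called higher. KDM4B read 8.61 and 8.65 with DMSO and 9.94 and 9.82 with PD-0332991. The sign of this list's median turned without the second DMSO array or the second PD-0332991 array of CUTL1 (-0.0518 and -0.0142).

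The histone genes did not move together. Of 19 tested replication-dependent histones 5 were called lower and 3 higher, with a median of -0.325. This made 42.1% called, against 27.2% of all genes tested. H3C2 read 5.30 and 5.78 with DMSO and 4.36 and 4.39 with PD-0332991. H2AC6 read 7.46 and 7.74 with DMSO and 8.91 and 8.89 with PD-0332991, and H2BC21 read 5.24 and 5.27 with DMSO and 6.42 and 6.63 with PD-0332991. Histone genes are near-identical copies, so the probe sets could not keep them fully apart.

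**Figure D3:**
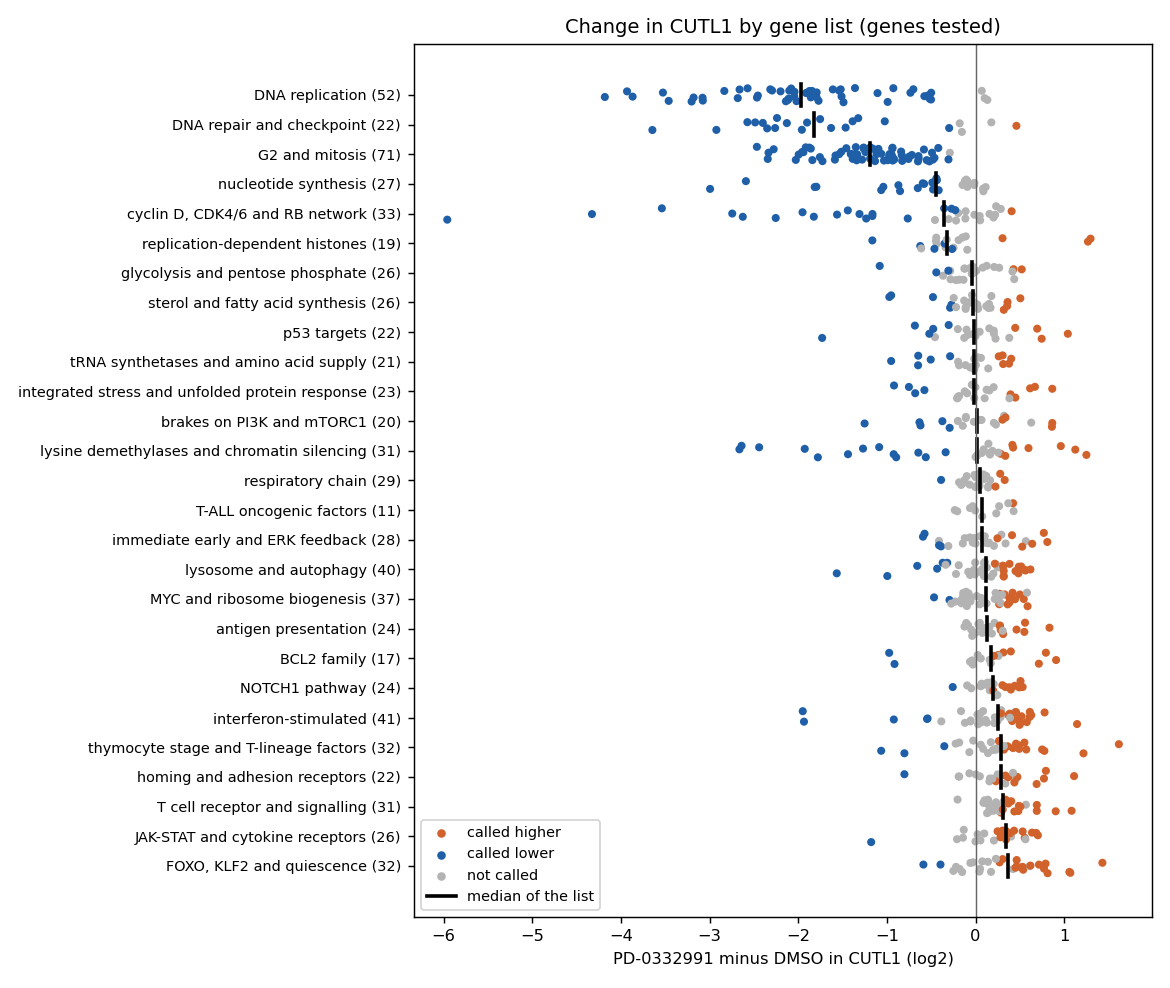
The difference between PD-0332991 and DMSO in CUTL1 (log2) for each tested member of 27 gene lists, coloured by whether it was called, with a black bar at the median of each list and the number of genes tested in brackets. The replication list has the lowest median (-1.97) and the list of FOXO, KLF2 and quiescence genes the highest (0.364).

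The rises were smaller and of other kinds. CYFIP1, a regulator of actin branching and of translation, read 5.24 and 5.88 with DMSO and 8.10 and 8.16 with PD-0332991, a difference of 2.57 ± 0.15 (SE) and the only rise of at least 4-fold. RAG1, a subunit of the recombinase that cuts antigen receptor genes, read 6.10 and 6.89 with DMSO and 8.21 and 8.02 with PD-0332991. KCNJ2, a potassium channel, read 6.78 and 6.89 with DMSO and 8.29 and 8.33 with PD-0332991. In each, both treated arrays lay above both DMSO arrays. The next rises were YPEL2 (1.43), CREBRF (1.41), IGHV1-69 (1.31), H2AC6 (1.30), GDPD1 (1.29), RGS1 (1.28), H2BC21 (1.27), KDM4B (1.25) and ANTKMT (1.25). IGHV1-69 belongs to a family of near-identical gene segments, so its identity is uncertain, and its rise was 0.85 without the first DMSO array and not called with the 4 CUTL1 arrays alone (adjusted p 0.0515 by limma). With probe sets averaged, the rises were 0.89 for RAG1, 0.78 for RGS1, 0.64 for GDPD1, 0.53 for KDM4B and 0.40 for YPEL2, all still called.

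About as many T-lineage genes were called higher as were not called. Calls took in 48.4% of the T cell receptor list and 53.1% of the thymocyte list, against 27.2% of all genes tested. Of 31 tested genes of the T cell receptor and its signalling 15 were called higher and 0 lower, with a median of 0.307, and 16 were not called. The kinase TXK read 5.01 and 5.60 with DMSO and 6.30 and 6.48 with PD-0332991, and CD7 read 7.68 and 7.92 with DMSO and 8.50 and 8.48 with PD-0332991. Among 32 tested genes of thymocyte stages 14 were called higher and 3 lower, and 15 were not called. RAG2, the partner of RAG1, read 6.84 and 7.06 with DMSO and 8.22 and 8.11 with PD-0332991, and DNTT, which adds bases at receptor joints, rose by 0.78. The falls were CCR7, ID2 and ID3. ID2, an inhibitor of E proteins, read 9.35 and 9.55 with DMSO and 8.30 and 8.48 with PD-0332991. Some markers of other lymphocytes were also called higher. The summed intensity of the 6 B cell markers was 2176 and 2047 with DMSO and 2898 and 2908 with PD-0332991. Most of that sum was CR2, which is also in the NOTCH1 list. CR2 read 10.89 and 10.80 with DMSO and 11.36 and 11.35 with PD-0332991. It was called higher (0.51), but not under 5 of 12 other settings, and CD79A and CD79B were not called. The summed intensity of the 7 NK and cytotoxic markers was 734 and 844 with DMSO and 914 and 953 with PD-0332991. NCR1 (0.50) and PRF1 (0.38) were called higher, but NCR1 was not called under 5 of 11 other settings and PRF1 under 5 of 13. The values of NCR1, 4.95 to 5.65, lay near the dim level. NKG7, at 8.54 to 8.95, was above the dim level on all 4 arrays, as were NCR1 and PRF1, and was not called. KLRD1, GNLY and GZMB were dim on all 4 arrays, and GZMA was above the level on 2. The part of the B cell and NK markers in the result was not tested.

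The share called was 56.2% among genes of FOXO, KLF2 and quiescence, against 27.2% of all genes tested. It was 45.5% among homing and adhesion receptors and 57.7% among cytokine receptor and JAK-STAT genes. Genes of FOXO, KLF2 and quiescence held 16 genes called higher and 2 lower among 32 tested, with a median of 0.364. Without the first DMSO or the first PD-0332991 array of CUTL1, 10 were called higher. TXNIP, which limits glucose uptake, read 6.53 and 6.65 with DMSO and 7.65 and 7.67 with PD-0332991, a rise of 1.07, or 0.65 with probe sets averaged. YPEL5 rose by 1.06 and the MYC antagonist MXI1 by 0.81. The FOXO word TGTTTAC was in 2.53% of promoters of genes called higher and in 2.35% of those of tested genes, and in 5 of the 29 promoters of this list. Of 22 tested homing and adhesion receptors 9 were called higher and 1 lower. GPR183, a receptor that guides lymphocyte migration, read 6.83 and 6.99 with DMSO and 8.05 and 7.99 with PD-0332991. Of 26 tested genes of cytokine receptors and JAK-STAT signalling 14 were called higher and 1 lower, with 8 higher without the first DMSO array and 7 without the second PD-0332991 array of CUTL1, and 8 with probe sets averaged or with the 4 CUTL1 arrays alone. The fall was PIM1, a kinase induced by cytokines (-1.18), and STAT6 rose by 0.70.

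Calls took in 35.1% of the MYC and ribosome assembly list and 45.8% of the NOTCH1 list, against 27.2% of all genes tested. The MYC and ribosome assembly list held 11 genes called higher and 2 lower among 37 tested, with a median of 0.122 in CUTL1. Of these, 7 were called higher without the first DMSO array, the first PD-0332991 array or the second PD-0332991 array of CUTL1, and 7 with probe sets averaged. MYC itself read 10.99 and 10.81 with DMSO and 11.57 and 11.41 with PD-0332991 (0.59 ± 0.10 SE, adjusted p 0.00113 by limma). POLR1C, a subunit of RNA polymerases that make ribosomal and transfer RNA, read 8.92 and 9.02 with DMSO and 9.53 and 9.49 with PD-0332991. NOP16, a nucleolar protein, read 10.82 and 10.79 with DMSO and 11.25 and 11.24 with PD-0332991, and was not called with its probe sets averaged (0.13). The falls were LYAR (-0.29) and POLR1E (-0.47). The NOTCH1 list held 10 genes called higher and 1 lower among 24 tested, while NOTCH1 itself was not called (0.06). Leaving out 1 of the 4 CUTL1 arrays left 2 (first DMSO or second PD-0332991), 4 (first PD-0332991) or 5 (second DMSO) of its genes called higher, and 6 were called with median-centred arrays and 5 with no filter on dim genes. The median of that list was 0.202. HES1, its classical target, read 10.84 and 10.69 with DMSO and 11.08 and 11.06 with PD-0332991 (adjusted p 0.0465 by limma), and was not called under 8 of 12 other settings.

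In the BCL2 family, 7 of 17 tested genes were called higher and 2 lower, and BCL2 and BCL2L11 changed in opposite directions. Calls took in 52.9% of the family, against 27.2% of all genes tested. Without the first DMSO array or the second PD-0332991 array of CUTL1, 3 were called higher. The count was 4 without the first PD-0332991 array, with arrays centred on their medians, with no filter on dim genes, with the replicate block or with the 4 CUTL1 arrays alone. BCL2, which blocks cell death, read 8.64 and 8.68 with DMSO and 7.68 and 7.70 with PD-0332991 (-0.97 ± 0.10 SE, adjusted p 1.73e-05 by limma), and changed by -0.39 with all its probe sets averaged. BCL2L11, which encodes the killer protein BIM, read 9.91 and 9.91 with DMSO and 10.65 and 10.60 with PD-0332991 (0.71 ± 0.12 SE). BIK, a further killer of the family, read 8.39 and 8.43 with DMSO and 9.29 and 9.35 with PD-0332991. The treated arrays lay apart from the DMSO arrays in all 3 genes. The survival genes BCL2A1 (0.79), BCL2L1 (0.40) and MCL1 (0.21, not called under 10 of 13 other settings and of the other sign, -0.14, under 1) were called higher, and BCL2L12 fell by 0.91.

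Interferon and metabolic lists held calls in both directions. Of 41 tested interferon-stimulated genes 16 were called higher and 5 lower, with a median of 0.25. Without the first DMSO array or the second PD-0332991 array of CUTL1, 9 were called higher. ISG20, an RNA exonuclease, read 8.08 and 8.49 with DMSO and 9.38 and 9.48 with PD-0332991. CMPK2, a mitochondrial nucleotide kinase, read 9.72 and 9.74 with DMSO and 7.76 and 7.80 with PD-0332991, and HERC5, the ligase of ISG15, fell by 1.94. Of 40 tested genes of lysosome and autophagy 15 were called higher and 6 lower, with GLA, a lysosomal galactosidase, at -1.57. Without the second PD-0332991 array of CUTL1 these counts were 8 and 4, and with the 4 CUTL1 arrays alone 9 and 5. Of 24 tested genes of antigen presentation 8 were called higher and 0 lower, with 3 higher without the first DMSO or the second PD-0332991 array of CUTL1, 5 without the first PD-0332991 array and 2 with the 4 CUTL1 arrays alone. For 26 genes of sterol and fatty acid synthesis the counts were 4 higher and 5 lower (1 and 3 without the second PD-0332991 array), for 26 of glycolysis 2 and 3, and for 29 of the respiratory chain 3 and 1. The share called was 51.2% in the interferon list, 52.5% in lysosome and autophagy and 33.3% in antigen presentation. It was 34.6% in the sterol list, 19.2% in glycolysis and 13.8% in the respiratory chain, against 27.2% of all genes tested.

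The remaining lists held calls in both directions, apart from the T-ALL factors. The share called was 40.9% of p53 targets, 39.1% of stress genes, 47.6% of the tRNA and amino acid list and 45% of the brakes. It was 35.7% of immediate early genes and 9.09% of T-ALL factors, against 27.2% of all genes tested. Among 22 tested p53 targets 4 were called higher and 5 lower. Among 23 genes of the unfolded protein and integrated stress responses 5 were called higher and 4 lower, and among 21 genes of tRNA charging and amino acid supply 5 and 5. Among 20 brakes on PI3K and mTORC1 the counts were 4 and 5, among 28 immediate early genes 6 and 4, and among 11 T-ALL oncogenic factors 1 and 0, the 1 being MYB (0.42). Leaving out 1 CUTL1 array moved several of these counts. The tRNA and amino acid genes called higher were 2 without the first DMSO or the second PD-0332991 array, and 0 with the 4 CUTL1 arrays alone. The stress genes called higher were 3 without the first DMSO or the first PD-0332991 array, and the immediate early genes 3 without the first DMSO or the second PD-0332991 array. The p53 targets called lower were 3 without the second DMSO or the first PD-0332991 array, and the brakes called lower 3 without either PD-0332991 array. DDIT4, an mTORC1 inhibitor, read 10.33 and 10.33 with DMSO and 11.19 and 11.20 with PD-0332991. DDB2, a repair factor and p53 target, fell by 1.73. PHGDH, the first enzyme of serine synthesis, fell by 0.95.

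The response of CUTL1 shared most of its large falls with the other lines. Of the 428 falls of at least 2-fold, 338 were also called lower in all 3 of CEM, DND41 and Jurkat, and of the 45 rises of that size 19 were called higher in all 3. Among all genes called higher in CUTL1, 511 were called higher in none of the other lines, and among those called lower, 247 were lower in none. Across genes, the differences in CUTL1 correlated at 0.692 with those of CEM, 0.646 with DND41 and 0.757 with Jurkat. Genes are not independent replicates, and the lines share the array platform and the processing.

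The difference itself was tested as the CUTL1 change minus the mean change of the other 3 lines. It was called for 617 genes (4.58% of those tested), of which 208 (1.54%) were higher and 409 (3.03%) were lower in CUTL1. Without the first PD-0332991 array of CUTL1 the count was 216, without its second 335, and without the first DMSO array 383. The genes called higher in it numbered 51 without the first PD-0332991 array, 86 without the second and 86 without the first DMSO array of CUTL1, 130 and 134 without either DND41 DMSO array, and 125 and 126 without either Jurkat PD-0332991 array. Of the 409 genes called lower in this difference, 334 were called lower in CUTL1 itself. Both measures use the same CUTL1 arrays, and this count does not show whether the other lines fell as well. Against single lines the counts were 693 for CEM, 964 for DND41 and 344 for Jurkat.

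Many replication genes were among those called lower in the difference. In the replication list 32 of 52 genes were called lower and 1 higher in the difference, against 3.03% and 1.54% of all genes. The list's median change was -1.97 in CUTL1, -1.35 in CEM, -1.24 in DND41 and -1.80 in Jurkat. CCNE2 changed by -5.96 in CUTL1 and by -2.91, -3.66 and -4.83 in CEM, DND41 and Jurkat, a difference of -2.16 ± 0.23 (SE, adjusted p 0.000678 by limma). The exception was GMNN, geminin, which inhibits CDT1. It averaged 12.05 with DMSO and 11.51 with PD-0332991 in CUTL1 (-0.54), with the arrays apart, and changed by -1.31, -1.15 and -1.72 in CEM, DND41 and Jurkat, a difference of 0.85 (adjusted p 0.00131 by limma). In the mitotic list 19 of 71 genes were lower and 0 higher in the difference, with medians of -1.19 in CUTL1 and -0.495, -0.721 and -1.44 in CEM, DND41 and Jurkat.

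**Figure D4:**
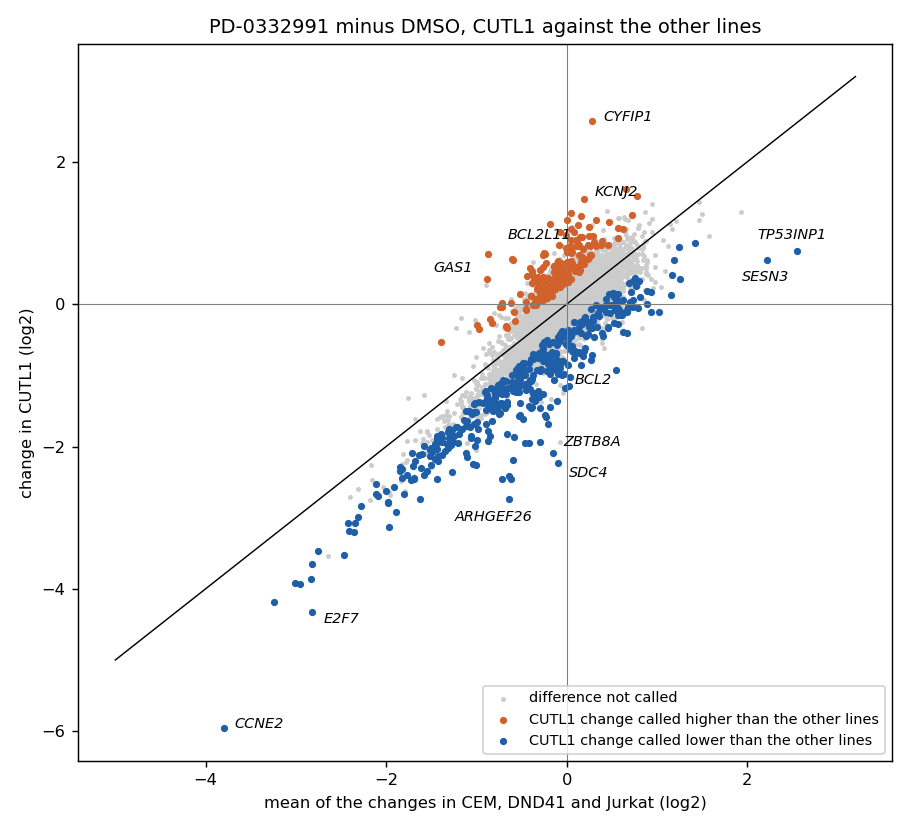
The change in CUTL1 (vertical, log2) against the mean change of CEM, DND41 and Jurkat (horizontal, log2), 1 point per gene tested, with genes of a called difference in orange (208) and blue (409) and a line of equal change. CCNE2 and E2F7 lie below the line at the lower left, CYFIP1 above it, and TP53INP1 and SESN3 at the right, where the other lines rose by more.

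Most of the largest differences were larger changes in CUTL1 than in each other line. CYFIP1 rose by 2.57 in CUTL1 and changed by 0.14, 0.45 and 0.26 in CEM, DND41 and Jurkat, where its DMSO level was 8.21, 8.59 and 9.44, against 5.56 in CUTL1. SDC4, a heparan sulfate proteoglycan, read 7.34 and 7.91 with DMSO and 5.41 and 5.38 with PD-0332991 in CUTL1. Its level with DMSO in the other lines, 4.97 to 5.09, lay just above the dim level. ARHGEF26 fell from 6.47 and 6.91 to 3.97 and 3.94 in CUTL1, and ZBTB8A from 6.67 and 6.97 to 4.82 and 4.64. ARHGEF26 changed by -0.85, -0.56 and -0.52 in CEM, DND41 and Jurkat. ASAP2, which changed by -2.46 in CUTL1, changed by 0.34, -1.16 and -1.01 there, and PHLDB2 (-2.45 in CUTL1) by -0.16, -1.31 and -0.67. Of the 10 largest negative differences, 7 had a treated mean below the dim level in CUTL1. These were ARHGEF26, ASAP2, MIR924HG, PHLDB2, SANBR, TANC1 and ZBTB8A. The difference for MIR924HG (-1.77) was not called without the second DMSO array (adjusted p 0.0766 by limma), the first PD-0332991 array (0.0949) or the second (0.0648) of CUTL1. That for TANC1 (-1.64) was -0.03, and its change in CUTL1 -0.04, without probe sets that may cross-hybridise. With all probe sets averaged, the difference for ARHGEF26 was -0.90.

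The large positive differences included 3 genes that were dim in the other lines. KCNJ2, APCDD1 and GPR171 were dim with DMSO in CEM, DND41 and Jurkat, so their differences are set against values at background there. APCDD1, a WNT inhibitor, read 8.64 and 8.55 with DMSO and 9.59 and 9.64 with PD-0332991 in CUTL1. GAS1, a hedgehog co-receptor, changed by 0.35 in CUTL1, which was not called (adjusted p 0.0680 by limma; 0.0205 with the replicate block, which called it), and by -0.45, -0.90 and -1.29 in CEM, DND41 and Jurkat. Its difference of 1.23 was 0.24 (adjusted p 0.212 by limma) with all its probe sets averaged. VEGFA, a growth factor of blood vessels, changed by 0.62 in CUTL1 and by -0.48, -0.65 and -0.67 in those lines. Its change in CUTL1 was not called without the first DMSO array (0.49) or the first PD-0332991 array (0.58), nor with probe sets averaged (0.20, adjusted p 0.0508 by limma), where its difference was 0.44. TNFRSF8, the receptor CD30, read 5.32 and 4.77 with DMSO and 5.95 and 5.42 with PD-0332991 in CUTL1. Its change in CUTL1 (0.64, adjusted p 0.0421 by limma) was not called without the second DMSO array (0.36) or the first PD-0332991 array (0.37), with arrays centred on their medians, with no filter on dim genes or with the 4 CUTL1 arrays alone. Its difference of 1.24 was not called without the second DMSO array (adjusted p 0.0582 by limma) or the first PD-0332991 array (0.0949) of CUTL1. EFEMP1, an extracellular matrix protein, read 3.92 and 4.40 with DMSO in CUTL1, which is dim, and 5.22 and 5.34 with PD-0332991. With probe sets averaged, the differences were 0.66 for EFEMP1, 0.66 for APCDD1 and 0.74 for RGS1.

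Some genes that rose in the other lines changed by less in CUTL1. TP53INP1, a p53 target that promotes autophagy, read 5.61 and 6.42 with DMSO and 6.63 and 6.89 with PD-0332991 in CUTL1 (0.75). It changed by 3.37, 2.20 and 2.10 in CEM, DND41 and Jurkat, a difference of -1.81 ± 0.25 (SE), or -0.66 with probe sets averaged. Its change in CUTL1 was not called without the first DMSO array (0.34), without the second PD-0332991 array (adjusted p 0.143 by limma) or with the 4 CUTL1 arrays alone (adjusted p 0.13). SESN3, a FOXO target that restrains mTORC1, read 6.80 and 6.94 with DMSO and 7.44 and 7.56 with PD-0332991 in CUTL1 (0.63, adjusted p 0.0778 by limma). Its mean with DMSO was 6.87 in CUTL1 and 6.96 in Jurkat, and was dim in CEM (3.30) and DND41 (4.29). With PD-0332991 it was 6.22 in CEM, 5.60 in DND41 and 9.39 in Jurkat. SESN3 changed by 2.92, 1.31 and 2.43 in the other lines (difference -1.59, adjusted p 0.0081 by limma). DDIT4 changed by 0.87 in CUTL1 and by 1.57, 1.26 and 1.44 there.

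Among 17 genes of the BCL2 family the difference was called higher for BCL2L11, BIK and PMAIP1 and lower for BCL2 and BCL2L12. Over all genes tested it was called higher for 1.54% and lower for 3.03%. BCL2 changed by -0.97 in CUTL1 and by -0.54, 0.54 and -0.09 in CEM, DND41 and Jurkat (difference -0.95 ± 0.11 SE, adjusted p 0.000988 by limma). BCL2L11 changed by 0.71 in CUTL1 and by -0.54, 0.18 and -0.39 there (difference 0.96 ± 0.13 SE, adjusted p 0.00214). PMAIP1, the killer NOXA, changed by 0.02 in CUTL1 and by -0.52, -0.24 and -1.09 there. BIK changed by 0.91 in CUTL1 and by 0.70, -0.22 and -0.13 there.

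The ribosome assembly genes had a positive median in CUTL1 (0.122) and negative ones in CEM (-0.173), DND41 (-0.226) and Jurkat (-0.123). Of 37 tested genes 6 were called higher and 0 lower in the difference, against 1.54% and 3.03% of all genes tested. The 6 were MYBBP1A, NOP16, PES1, POLR1C, RRP12 and WDR12. RRP12, which exports ribosomal subunits, read 7.90 and 7.95 with DMSO and 8.36 and 8.26 with PD-0332991 in CUTL1 (0.38), and changed by -0.61, -0.26 and -0.23 in the other lines. PES1, which acts in assembly of the large subunit, changed by 0.33 in CUTL1 and by -0.26, -0.09 and -0.10 there. The difference for MYC was 0.42 (adjusted p 0.0711 by limma), which was not called, and its change in DND41 was 0.55.

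**Figure D5:**
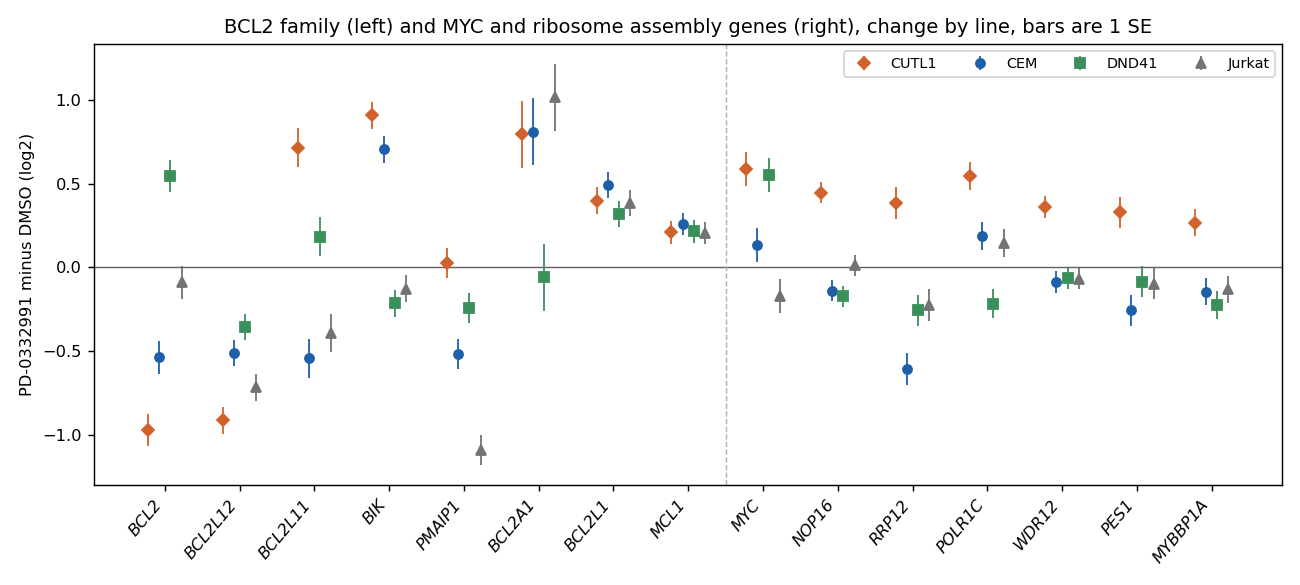
The change (PD-0332991 minus DMSO, log2) in each line, with bars of 1 SE, for 8 BCL2 family genes (left of the dashed line) and MYC with 6 ribosome assembly genes (right). Each SE comes from a spread pooled over all 8 groups of 2 arrays, so a gene's bar is the same in each line and is not that line's own spread. BCL2 is lowest in CUTL1 (-0.97) and BCL2L11 highest (0.71), and the 6 assembly genes are positive in CUTL1 (0.27 to 0.54).

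The MYC-type E-box CACGTG, read the same on both strands, was in 23.4% (39 of 167) of promoters of genes whose change was higher in CUTL1 than in the other lines. The share was 10.1% among tested genes, 7.43% among all promoters, 12.6% among genes called higher in CUTL1 and 40% (12 of 30) in the MYC and ribosome list. The windows of 2 such genes with a called rise are shown, with the E-box in capitals. These 60 bases lie farther from the start site, at -250 to -191 for ANTKMT and -139 to -80 for DUSP2.
ANTKMT (chr16:720896-720955, plus strand): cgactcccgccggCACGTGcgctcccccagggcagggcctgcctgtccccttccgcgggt
DUSP2 (chr2:96145520-96145579, minus strand): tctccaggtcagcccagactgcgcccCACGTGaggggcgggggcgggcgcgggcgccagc

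ANTKMT, a lysine methyltransferase of mitochondria, read 5.95 and 6.01 with DMSO and 7.10 and 7.34 with PD-0332991 in CUTL1. DUSP2, a phosphatase of ERK kinases, read 8.98 and 9.11 with DMSO and 9.60 and 9.55 with PD-0332991. The groups did not overlap for either gene. DUSP2 changed by -0.05, -0.20 and -0.05 in CEM, DND41 and Jurkat.

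Members of other lists also differed, against 3.03% of all genes called lower and 1.54% called higher in the difference. Of 41 tested genes of the interferon list 4 were called lower and 0 higher in the difference: CMPK2, HERC5, RSAD2 and TRIM22. CMPK2 changed by -1.95 in CUTL1 and by -0.44, -0.28 and -0.52 in CEM, DND41 and Jurkat. RSAD2, an antiviral enzyme, read 5.58 and 6.01 with DMSO and 4.90 and 4.86 with PD-0332991 in CUTL1, and changed by 1.08, 0.29 and 0.29 in the other lines. Of 40 tested genes of the lysosome list 5 were lower and 0 higher: CTSH, GLA, GUSB, NEU1 and NPC1. HEY1, a NOTCH target, read 6.85 and 7.05 with DMSO and 7.36 and 7.55 with PD-0332991 in CUTL1, and changed by -0.46, -0.43 and -0.34 in the other lines. ID2 changed by -1.06 in CUTL1 and by -0.16, -0.22 and -0.06 there.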

How the data were processed

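Per the labels' protocols, RNA was extracted with a Qiagen kit, and 5 ng was amplified and labelled with Nugen reagents. Per the submitters' processing notes, the deposited intensity values come from RMA. Its version and the genome build are not stated here. They are on a linear scale, although log2 had been assumed, so log2 was taken with no pseudocount or scaling. Of 54675 probe sets, 41097 had 1 gene symbol in the platform annotation, 1801 several and 11777 none here. A gene took its probe set of highest mean. Genes were tested where a line's mean reached 29.45 (13483 of 19775). limma 3.58.1 in R 4.3.3 fitted 8 group means over 16 arrays, two-sided. Precision is limited by 2 arrays per group. Named genes were the 12 largest rises and falls, the 10 largest differences each way, the 3 list members of smallest p, and 22 set genes; others were chosen after their values were seen. Members and lists were chosen with earlier results of these data known. C11orf96 and 1 further locus were passed over as uncharacterised. The scripts were tested on simulated data. Figures used Python 3.11.15 and matplotlib 3.10.9. Promoters were RefSeq sequences of GRCh38.p14, matched by symbol.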

Additional observations from a re-analysis of the deposited data

Results flagged for a closer look

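The test of the difference between CUTL1 and the mean of the other 3 lines called 65 of the 145 genes named by rule. Adjusted p-values by limma ran from 0.000114 to 0.0386, and the values below are the CUTL1 change minus that mean on the log2 scale. The genes named for a large difference were chosen by this same measure.

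The change was higher in CUTL1 by 2.29 for CYFIP1, 1.31 for EFEMP1, 1.28 for KCNJ2, 1.24 for TNFRSF8, 1.23 for GAS1, 1.23 for RGS1, 1.21 for VEGFA, 1.18 for GPR171, 1.09 for APCDD1 and 1.09 for ANTKMT. KCNJ2, GPR171 and APCDD1 were dim with DMSO in all 3 other lines, and EFEMP1 was dim with DMSO in CUTL1. Among lymphoid genes it was higher by 0.988 for GPR183, 0.964 for RAG1, 0.838 for TXK and 0.426 for CD7. GPR183 was also dim with DMSO in all 3 other lines, at 2.71 in CEM, 2.86 in DND41 and 2.72 in Jurkat. In the BCL2 family the difference was 0.965 for BCL2L11, 0.789 for BIK, -0.946 for BCL2 and -0.386 for BCL2L12. It was 0.625 for DUSP2, 0.547 for NOP16, 0.522 for KDM4B, 0.505 for POLR1C, 0.502 for TXNIP and 0.486 for MXI1.

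Among genes of the cell cycle and DNA replication the difference was -2.16 for CCNE2, -1.51 for E2F7, -1.12 for CCNE1, -1.06 for CDT1, -1.04 for DTL, -0.975 for CDC6, -0.944 for GINS2, -0.905 for ZNF367, -0.847 for ORC1, -0.772 for CDC45, -0.707 for MCM10 and -0.623 for CDC25A. It was -0.782 for CCND2, which was dim in CUTL1. For repair, chromatin and nucleotide genes it was -0.862 for ASF1B, -0.828 for EXO1, -0.816 for FANCI, -0.801 for BLM, -0.685 for RRM2, -0.612 for CHAF1A and -0.481 for TYMS. For mitotic genes it was -0.741 for CDCA5, -0.577 for MYBL2 and -0.528 for MELK.

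Outside the cell cycle it was -2.13 for SDC4, -2.10 for ARHGEF26, -1.94 for ZBTB8A, -1.85 for ASAP2, -1.81 for TP53INP1, -1.77 for MIR924HG, -1.74 for PHLDB2, -1.64 for TANC1 and -1.60 for SANBR. In the interferon and lysosome lists it was -1.54 for CMPK2, -1.04 for GLA, -0.679 for HERC5 and -0.619 for GUSB. It was -0.920 for ID2, -0.758 for the stress factor ATF3 and -0.557 for DDIT4. Without _x_at and _s_at probe sets the change of ATF3 in CUTL1 was -0.177 and was not called (adjusted p 0.488 by limma). Of the glycolytic genes, ENO2 had -0.414 and HK2 0.430.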

How the results depend on the processing

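Of 145 named genes, 113 kept their direction and their side of the threshold in the CUTL1 change under every alternative run. Only the 4 CUTL1 arrays gave 1211 genes called higher. The difference from the other lines called 120 genes higher with no filter on dim genes, 385 in all (114 higher, 271 lower) without _x_at and _s_at probe sets, 964 (485 higher) against DND41 alone and 344 (125 higher, 219 lower) against Jurkat alone. With the replicate block it called 388 (95 higher). The CUTL1 change called 3303 genes with that block. Same-numbered arrays deviated together at r = 0.076 in CEM, 0.195 in CUTL1, -0.108 in DND41 and 0.105 in Jurkat, so the numbers were not taken to pair the arrays.

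Leaving out 1 array gave 2447 to 3229 called genes (1135 to 1768 higher) in CUTL1 and 216 to 703 (51 to 259 higher, 165 to 445 lower) in the difference.

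Signs turned for 9 genes, of which MCL1 had been called. With probe sets averaged these were CCND1 (0.157), CCND2 (0.158), CD79B (0.0620) and RBL2 (-0.0356), and without _x_at and _s_at probe sets CCND1 (0.510) and MCL1 (-0.137). Leaving out 1 array gave CCND2 -0.235 to 0.0104, CD79B -0.384 to 0.0738, KRT18 -0.179 to 0.0467, PDGFRB -0.322 to 0.273, PF4 -0.0389 to 0.261, RBL2 -0.0604 to 0.164 and VWF -0.0401 to 0.173.

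Medians of lists near 0 also turned. That of the PI3K and mTORC1 brakes was -1.64e-05 with arrays centred on their medians, -0.00168 with cyclic loess, -0.0185 with no filter and -0.110 without _x_at and _s_at probe sets. Leaving out 1 array gave -0.0665 to 0.0834 for these brakes, -0.0471 to 0.0754 for p53 targets, -0.0777 to 0.00532 for tRNA charging and amino acid supply, -0.0371 to 0.00496 for sterol and fatty acid synthesis, -0.00409 to 0.127 for immediate early genes and -0.0518 to 0.0693 for lysine demethylases. The median of the stress responses was 0.00524 with quantile normalization, and that of p53 targets 0.113 without _x_at and _s_at probe sets. The cause of these changes was not tested.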

Other observations

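Of the 617 genes with a called difference, 123 had a CUTL1 change of the opposite sign to all 3 other lines, 68 positive and 55 negative. The CUTL1 change itself was called for 35 of the 68 and 17 of the 55, so the sign in CUTL1 is uncertain for the rest. The examples here were chosen after their values were seen. POU2AF1, a B-cell transcription coactivator, read 8.80 and 8.98 with DMSO and 9.31 and 9.41 with PD-0332991 in CUTL1 (0.47), and changed by -0.26, -0.73 and -0.15 in CEM, DND41 and Jurkat. ASNS, asparagine synthetase, changed by 0.40 in CUTL1 and by -0.42, -0.21 and -0.70 there. IL4R, the interleukin receptor, changed by 0.38 in CUTL1 and by -0.14, -0.14 and -0.04 there. APOBEC3C, a cytidine deaminase, changed by -0.47 in CUTL1 and by 0.24, 0.17 and 0.49 there. ETV5, a transcription factor of the ERK pathway, changed by -0.39 in CUTL1 and by 0.52, -0.11 and 1.46 there, so its sign was shared with DND41.

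Of the 428 falls of at least 2-fold in CUTL1, 291 were in none of the pathway lists. Among 2381 called genes with more than 1 probe set, 8 had a probe set called the other way.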
